A study of Mus musculus with 6 samples.

Results

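The ligands of the epidermal growth factor (EGF) family were followed through pancreatic tumours of KPC mice profiled by droplet single-cell RNA sequencing. The 8 genes taken were Areg, Ereg, Hbegf, Egf, Tgfa, Btc, Epgn and Nrg1, matched by symbol among the 32285 features that all 6 libraries list. Each of the 8 had UMIs (counted transcript molecules) in the kept cells of every library, with totals between 138 for Epgn and 141453 for Hbegf. The question put to the data was which cells of the tumour hold each ligand's transcripts, and whether those levels differed after treatment.

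Tumours of 3 mice given trametinib (1 mg/kg), a MEK inhibitor, and also hydroxychloroquine (40 mg/kg), an inhibitor of lysosomal breakdown, were set against tumours of 3 mice given corn oil and water as vehicle. Both drugs were given by mouth, mice entered at random with a tumour of 4 to 7 mm by ultrasound, and tissue was taken 24 h after treatment. All 6 mice, those on vehicle included, carried p53LSL.R172H/+ and Pdx1-Cretg/+ among the alleles of the model, so that Cre driven from the Pdx1 promoter switches on mutant alleles in the pancreatic epithelium. Each library comes from 1 mouse, and neither age nor sex is given in the sources used here.

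Ligands of this family are made as membrane-anchored precursors, and metalloproteases of the ADAM family cut them loose. Areg, Egf, Tgfa and Epgn bind the receptor EGFR, Hbegf, Btc and Ereg bind EGFR and ErbB4, and Nrg1 binds ErbB3 and ErbB4, while ErbB2 has no known ligand and acts as partner of the others. Activated receptors signal through MEK and ERK. Areg, Ereg, Hbegf and Tgfa are also known to be transcribed in response to ERK activity in several cell types.

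Epgn, Ereg, Areg and Btc are neighbours on mouse chromosome 5, within 375.531 kb at chr5:91027464-91402994 (GRCm38, GENCODE M21). Epgn, Ereg and Areg lie on the plus strand, and Btc on the minus strand. Promoters of 3 of the 4 neighbours are shown because these adjacent genes had different cell patterns, given below. Each is the 250 bases before the RefSeq start site (GRCm38.p6), 5′ to 3′ on the gene's own strand, with matches to the motifs searched in capitals. Areg is chr5:91139349-91139598 (plus), Epgn is chr5:91027267-91027516 (plus) and Btc is chr5:91402995-91403244 (minus).
Areg: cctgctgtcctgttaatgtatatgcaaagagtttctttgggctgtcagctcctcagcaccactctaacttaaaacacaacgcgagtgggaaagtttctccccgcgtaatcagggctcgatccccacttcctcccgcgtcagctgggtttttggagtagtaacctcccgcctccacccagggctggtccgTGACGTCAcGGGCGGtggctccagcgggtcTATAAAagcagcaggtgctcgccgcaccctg
Epgn: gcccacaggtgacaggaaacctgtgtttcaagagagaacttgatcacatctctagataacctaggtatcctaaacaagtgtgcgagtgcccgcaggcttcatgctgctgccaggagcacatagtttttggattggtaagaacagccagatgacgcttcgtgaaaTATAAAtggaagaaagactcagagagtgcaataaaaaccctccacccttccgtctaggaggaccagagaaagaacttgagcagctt
Btc: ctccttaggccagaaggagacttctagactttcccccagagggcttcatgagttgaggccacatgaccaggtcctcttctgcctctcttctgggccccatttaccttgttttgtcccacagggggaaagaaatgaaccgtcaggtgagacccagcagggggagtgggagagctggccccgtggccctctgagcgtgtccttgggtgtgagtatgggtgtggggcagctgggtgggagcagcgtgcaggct

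Motifs searched on both strands were the cAMP response element TGACGTCA, the AP-1 site TGANTCA, the TATA box TATAAA and the GC box GGGCGG. The Areg promoter held TGACGTCA 61 bases before the start site, GGGCGG at 52 bases and TATAAA at 31 bases, with no overlap between them. The Epgn promoter held TATAAA at 86 bases, and the Btc promoter held no match. Of 32851 RefSeq mouse promoters of the same length, 1.55% held TGACGTCA, 6.75% TGANTCA, 12.4% TATAAA and 32.7% GGGCGG.

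The other members lie apart from these 4, Egf at chr3:129677565-129755316 (minus), Tgfa at chr6:86195223-86275719 (plus), Nrg1 at chr8:31814551-32884029 (minus) and Hbegf on chromosome 18 (minus).

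Treated libraries held 70523616 to 103825578 UMIs and 3926 to 5983 kept cells, and vehicle libraries 22996012 to 126645602 UMIs and 2142 to 10323 kept cells. Median depth was 8449 to 11175.5 UMIs per kept cell in treated mice and 2991 to 4719 in vehicle mice. Cells were placed in 15 classes by marker genes that did not include the 8 ligands, and 1477 of 37018 cells (3.99%) stayed unnamed. Of the 7 classes with at least 20 cells in all 6 mice, tumour and ductal epithelial cells, neutrophils, fibroblasts, B lymphocytes and endothelial cells had all of their markers at 50 CPM or more, macrophages and monocytes 10 of 11, and T and NK lymphocytes 9 of 11. The library of vehicle mouse 1 stands apart: the first 7 bases of 25.9% of its barcodes also began a barcode of vehicle 2, whereas this share was at least 99.8% between any 2 of the other 5 libraries. Vehicle 1 was the lowest of all 6 mice in 15 of the 22 ligand and class pairs with a mean of at least 5 CPM, at a median of 23.1% of the median of the other 5. Its values are given separately below, and treatment results are given with and without it. Libraries shared 0 to 24 barcodes a pair.

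Levels are given in CPM, the UMIs of a gene in a class of a mouse scaled to 1000000 UMIs of that class. They compare 1 gene between cell classes or mice, not 1 gene with another. Neighbouring classes in the order of mean CPM were compared within mice by a two-sided exact sign-flip permutation test on log2(CPM + 1), over 48 comparisons. With 6 mice its smallest p is 0.03125. The lowest Benjamini-Hochberg adjusted p found was 0.1875, and 0 adjacent orders passed 0.05.

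Hbegf, heparin-binding EGF-like growth factor, was highest in tumour and ductal epithelial cells in 6 of 6 mice. Levels there were 362, 326 and 466 CPM in treated mice 1 to 3, against 244, 432 and 468 CPM in vehicle mice 1 to 3. The groups overlapped, and their means nearly coincided at 385 ± 72.7 CPM in tumour cells of treated mice and 381 ± 120.4 CPM in those of vehicle mice (SD, n = 3 each, as throughout). Neutrophils came next, with 120, 130.8 and 128.6 CPM in treated mice and 12.4, 283 and 263 CPM in vehicle mice. Tumour cells exceeded neutrophils by 1.73 ± 1.29 on the log2 scale in 6 of 6 mice (exact permutation p = 0.03125, adjusted p = 0.1875). Within the vehicle group, neutrophils of mouse 1 lay far below those of mice 2 and 3.

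Fibroblasts held Hbegf at 79.3 ± 7.95 CPM (treated) and 93.6 ± 76.0 CPM (vehicle). Endothelial cells were at 89.6 ± 21.1 CPM (treated) and 81.6 ± 57.8 CPM (vehicle), and the order of fibroblasts and endothelial cells differed by 0.00 ± 0.25 on the log2 scale (exact permutation p = 0.96875). Macrophages and monocytes followed with 70.6 ± 24.2 CPM (treated) and 66.0 ± 51 CPM (vehicle), below endothelial cells in 6 of 6 mice (exact permutation p = 0.03125, adjusted p = 0.1875). In each of these 3 classes vehicle 1 was the lowest mouse, at 29.4, 25 and 15 CPM. T and NK lymphocytes had 21.1 ± 2.26 CPM (treated) and 23.9 ± 23.0 CPM (vehicle), and B lymphocytes 3.08 ± 5.33 CPM (treated) and 10.8 ± 10.5 CPM (vehicle). Both lymphocyte levels lay under 10% of the level in tumour cells, at 5.87% and 1.81% of it, a level that RNA free in the suspension can also give. Of the classes with at least 20 cells in fewer mice, pericytes and smooth muscle cells had 209.5 CPM in 1 treated and 94.1 CPM in 1 vehicle mouse. Acinar cells had 0 and 158 CPM in 2 treated mice, against 138 CPM in 1 vehicle mouse.

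Btc, betacellulin, was found mainly in tumour and ductal epithelial cells, the highest class in 6 of 6 mice. Tumour and ductal epithelial cells had 40.2, 36.9 and 36.6 CPM in treated mice, against 37.1, 120.4 and 97.3 CPM in vehicle mice. The 3 treated mice and vehicle 1 lay together, and vehicle 2 and 3 lay above them. No other class tested in all 6 mice had a mean above 3.56 CPM, the level in neutrophils, and tumour cells exceeded neutrophils by 4.40 ± 0.92 on the log2 scale in 6 of 6 mice (exact permutation p = 0.03125, adjusted p = 0.1875). Acinar cells, the enzyme-secreting cells of the pancreas, were found in number in only 3 mice and had 13.6 and 32.1 CPM in treated 1 and 2, against 24.3 CPM in vehicle 3, from 5, 7 and 38 UMIs.

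Tgfa, transforming growth factor alpha, was shared between tumour cells and endothelial cells, which were each highest in 3 of 6 mice. Tumour cells had 12.5, 14.2 and 34.9 CPM in treated mice, against 11.6, 24.7 and 30.3 CPM in vehicle mice. Endothelial cells had 15.8, 20.8 and 10.2 CPM in treated mice, against 31.2, 15.8 and 8.21 CPM in vehicle mice, the value of vehicle 1 resting on 5 UMIs. Treated and vehicle mice overlapped in both classes. Endothelial cells exceeded neutrophils, the next class, by 3.03 ± 1.70 on the log2 scale in 6 of 6 mice (exact permutation p = 0.03125, adjusted p = 0.1875). In the remaining 5 tested classes the mean of Tgfa was 0.601 to 1.78 CPM.

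Areg, amphiregulin, had its highest level outside the epithelium in most mice. T and NK lymphocytes were the highest class in 4 mice, macrophages and monocytes in treated 1, and tumour cells in vehicle 1. T and NK lymphocytes had 127, 225 and 140.5 CPM in treated mice, against 13.8, 215 and 303 CPM in vehicle mice, where the value of vehicle 1 is 1 UMI. Macrophages and monocytes had 307, 194 and 133 CPM in treated mice, against 4.10, 59.5 and 249.8 CPM in vehicle mice. In tumour and ductal epithelial cells Areg had 83.2, 68.7 and 46.0 CPM in treated mice, against 24.1, 129.7 and 111.7 CPM in vehicle mice. Treated and vehicle mice overlapped in all 3 classes, with vehicle 1 the lowest mouse in each.

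The order of those 3 classes was not separated beyond its spread: T and NK lymphocytes over macrophages gave an exact permutation p of 0.28125, and macrophages over tumour cells 0.5625. Tumour cells exceeded neutrophils in 6 of 6 mice, by 1.81 ± 1.37 on the log2 scale (exact permutation p = 0.03125, adjusted p = 0.1875). Neutrophils had 14.1, 4.51 and 37.7 CPM in treated mice, against 5.13, 25.8 and 104.4 CPM in vehicle mice. B lymphocytes had 0, 0 and 2.13 CPM in treated mice, against 11.2, 12.0 and 15.1 CPM in vehicle mice. Of the 22 pairs with a mean of at least 5 CPM, that was the only 1 whose groups did not overlap. The share of all genes without overlap was not counted, so this count is not a result about the ligands. By the separate measure of edgeR calls, 0% of the 2126 genes tested in this class were called between treated and vehicle mice. Areg did not pass the filter on low counts there and was not tested. Areg in B lymphocytes rests on 28 UMIs, at 3.95% of the level in T and NK lymphocytes. The zeros came from 25 and 20 cells, where a count of 0 allows up to 33.7 and 40.2 CPM, and the value of vehicle 1 is 1 UMI. Among the 7 tested classes, fibroblasts (4.45 CPM) and endothelial cells (1.01 CPM) had the lowest means of Areg. Of the classes with at least 20 cells in fewer mice, conventional dendritic cells had 10.1 and 146 CPM in 2 vehicle mice. Plasmacytoid dendritic cells had 88.0 CPM in 1 vehicle mouse, from 8 UMIs.

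Ereg, epiregulin, was highest in fibroblasts in 4 mice and in tumour cells in treated 1 and 2. Fibroblasts had 12.9, 17.5 and 24.4 CPM in treated mice, against 12.8, 88.3 and 97.7 CPM in vehicle mice. Vehicle 1 lay just under the lowest treated mouse, and vehicle 2 and 3 lay above all 3 treated mice. In the epithelium Ereg had 22.6, 20.7 and 8.86 CPM in treated mice, against 2.68, 37.3 and 24.4 CPM in vehicle mice. Fibroblasts over tumour cells gave a log2 difference of 0.91 ± 1.14 (exact permutation p = 0.125). Macrophages and monocytes had 10.5 ± 5.46 CPM (treated) and 9.49 ± 7.12 CPM (vehicle). In neutrophils Ereg was at 0, 0 and 5.63 CPM in treated mice, against 0, 20.9 and 44.9 CPM in vehicle mice, so that all but 13 of its 156 UMIs came from vehicle 2 and 3. A count of 0 there allows up to 4.24 CPM in treated 1, 6.77 CPM in treated 2 and 1.28 CPM in vehicle 1 (3 UMIs of the class total, counting error only).

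Nrg1, neuregulin 1, had its highest level in macrophages and monocytes in 4 mice. Its level in them was 58.8, 82.2 and 61.0 CPM in treated mice, against 5.92, 112.3 and 133 CPM in vehicle mice. Fibroblasts had 15.2, 17.8 and 19.7 CPM in treated mice, against 2.75, 135 and 8.78 CPM in vehicle mice. The fibroblasts of vehicle 2 alone stood far above the rest. Neutrophils had 11.3, 22.6 and 6.50 CPM in treated mice, against 5.98, 3.69 and 11 CPM in vehicle mice, from 3 to 31 UMIs a mouse. Neutrophils exceeded tumour cells in 6 of 6 mice (exact permutation p = 0.03125, adjusted p = 0.1875). Tumour and ductal epithelial cells averaged 3.93 CPM, 5.21% of the level in macrophages, a level that RNA free in the suspension can also give. Conventional dendritic cells, with at least 20 cells in only 2 mice, both on vehicle, had 16.9 and 107.9 CPM.

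Egf and Epgn, epidermal growth factor and epigen, were close to absent at this depth. Egf had 330 UMIs in all and a mean of at most 0.978 CPM in any class tested in all 6 mice. In conventional dendritic cells it reached 20.2 and 12.7 CPM in vehicle 2 and 3, from 6 and 4 UMIs. These were the 2 mice with over 20 cells of that class. Epgn had 138 UMIs in all and a mean of at most 0.907 CPM. Neither had a UMI in every tested class: Egf had none in T and NK lymphocytes, and Epgn none in B lymphocytes or endothelial cells.

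**Figure D1:**
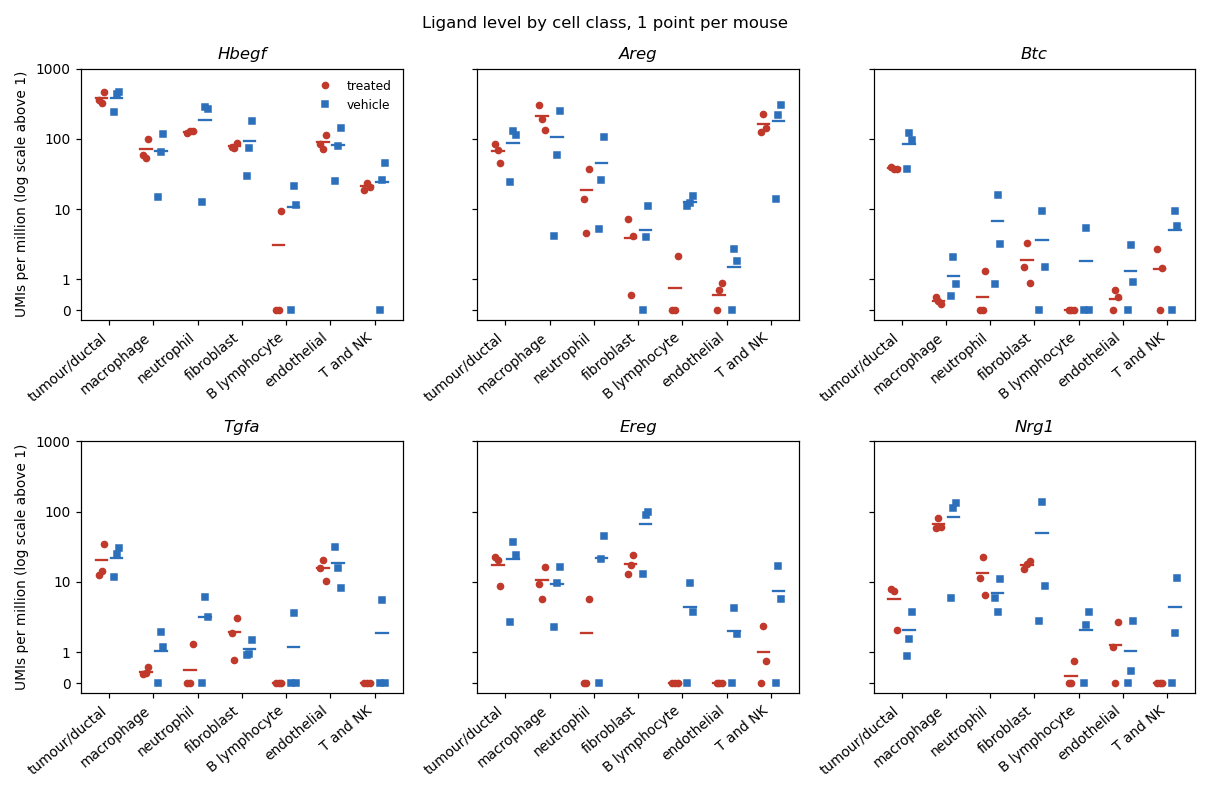
Level of 6 of the 8 ligands (CPM, log axis above 1) in each of the 7 cell classes tested in all 6 mice, 1 point per mouse, with treated mice left of vehicle mice and bars at group means. Hbegf and Btc are highest in tumour and ductal epithelial cells in every mouse, and Hbegf in neutrophils spans 12.4 to 283 CPM over vehicle mice.

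Free RNA from tumour cells was gauged by the 12 tumour and ductal epithelial markers summed. In neutrophils that sum was 212 to 316 CPM in treated and 127 to 2812 CPM in vehicle mice, or 2.48% to 18.9% of its level in tumour cells. It was 0.879% to 4.75% in macrophages and monocytes, 1.69% to 4.17% in fibroblasts and 2.87% to 10.1% in T and NK lymphocytes. The marker sum did not overlap between groups in B lymphocytes (67.0 to 180.3 CPM in treated, 190.0 to 1227 CPM in vehicle mice) or in endothelial cells (47.5 to 144 CPM in treated, 181 to 534 CPM in vehicle mice). Nor did it in macrophages and monocytes (59.4 to 87.1 CPM in treated, 133 to 705 CPM in vehicle mice). Areg in T and NK lymphocytes stood at 57.2% to 327% of its tumour level and Hbegf in neutrophils at 5.08% to 65.5%. Btc stood at 0.536% to 1.72% in macrophages and at 0% to 13.3% in neutrophils, a range like that of the markers. Vehicle 2 had the highest sum in neutrophils, and it had 16.0 CPM of Btc there from 13 UMIs. The part of free RNA in these levels was not tested.

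Level, cell number and UMIs per cell together set which class holds most of a ligand's transcripts. Median UMIs per cell were 19165 to 34430.5 in treated and 11009 to 23852 in vehicle tumour cells. In macrophages and monocytes they were 2543 to 12179 in treated and 3077 to 4900 in vehicle mice. Tumour and ductal epithelial cells held 98.2% of Btc UMIs (97.4% to 99.1% over 6 mice), 93.6% of Tgfa UMIs (91.3% to 97.6%) and 88.7% of Hbegf UMIs (75.8% to 95.2%), although endothelial cells matched them in the level of Tgfa. For Areg, tumour cells held 63.5%, 73.4% and 26.8% in treated mice, against 88.7%, 92.5% and 72.1% in vehicle mice. Macrophages and monocytes held 34.5%, 23.2% and 66.8% of Areg UMIs in treated mice, against 2.61%, 4.86% and 23.1% in vehicle mice. The lowest treated mouse thus stood just above the highest vehicle mouse, but cell recovery enters such shares and no test was made. T and NK lymphocytes, high in level, held 0.29% to 3.19% of Areg UMIs, with few cells in each mouse. Their median UMIs per cell were 3135 to 3277.5 in treated and 1148 to 1726.5 in vehicle mice.

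For Ereg, tumour cells held 88.8%, 91.6% and 26.9% of UMIs in treated mice, against 59.6%, 60.3% and 65.7% in vehicle mice. Fibroblasts held 5.72%, 5.44% and 26.1% in treated mice, against 24.6%, 36.0% and 23.4% in vehicle mice. In treated 3, which had fewer tumour cells (886) than macrophages (2523), macrophages held 42.9% of Ereg UMIs. For Nrg1, macrophages and monocytes held 46.1%, 48.9% and 83.0% in treated mice, against 28.9%, 26.3% and 76.4% in vehicle mice. Tumour cells held 42.3%, 39.4% and 3.24% of Nrg1 UMIs in treated mice, against 24.4%, 3.14% and 15.1% in vehicle mice. Their Nrg1 level was only 5.21% of that in macrophages, and the part of free RNA in these shares was not tested. In vehicle 1, with 45 Nrg1 UMIs in all, neutrophils held 31.1%. Fibroblasts of vehicle 2 held 70.0% of that mouse's Nrg1 UMIs, against 3.13% to 11% in the other 5 mice.

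**Figure D2:**
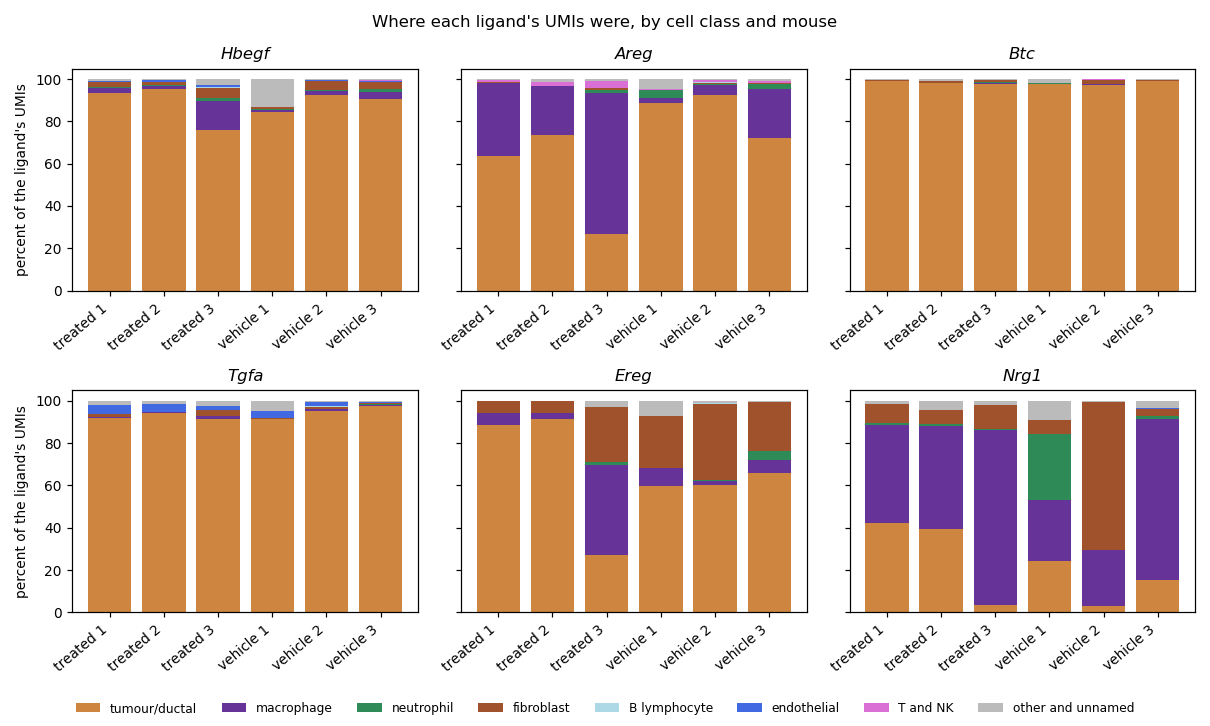
Share of the UMIs of 6 ligands (percent of a ligand's UMIs in all kept cells of a mouse) held by each cell class, stacked to 100%, with treated mice left of vehicle mice. Tumour and ductal epithelial cells fill 97.4% or more of Btc in each mouse. Areg divides mainly between epithelium and macrophages, and Ereg and Nrg1 mainly between epithelium, macrophages and fibroblasts. The part of free RNA in the Nrg1 share of the epithelium was not tested. These proportions differ from mouse to mouse.

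Within classes, the ligands were concentrated in certain sub-clusters, given by number and leading genes. Clusters were drawn on other genes of the same cells, so these values are descriptions. Among T and NK lymphocytes, Areg was highest in sub-cluster 14.0, at 323 CPM over 321 cells, with 33.6% of cells holding a UMI. It had all 4 regulatory T markers (Foxp3, Il2ra, Ctla4 and Ikzf2) at 50 CPM or more, and also all 5 markers of dividing cells. Its Areg level was 239, 478 and 207 CPM in treated mice 1 to 3, against 691 and 465 CPM in vehicle 2 and 3. Sub-cluster 14.5, with the CD8 T and NK markers Cd8a, Cd8b1, Gzmb, Prf1 and Ncr1, had 2.71 CPM. In 14.0, vehicle 2 lay above all 3 treated mice, and vehicle 3 lay between treated 2 and the other treated mice.

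Areg in macrophages ranged from 0 to 664 CPM over 37 sub-clusters, with a median of 78.1 CPM. The highest, 2.6 (Arg1, Ccl6, Il1b, Cxcl2), drew 145 of its 155 cells from vehicle 3. Sub-cluster 2.0 was next, at 435 CPM over 1089 cells, and held the markers Arg1, Spp1 and Vegfa. In it Areg was 783, 733 and 351 CPM in treated mice, against 208 and 366 CPM in vehicle 2 and 3. Most of its cells, 877, came from vehicle 3. The treated values rest on 55, 39 and 21 cells, and that of vehicle 2 on 88. Nrg1 was highest in monocyte-marked sub-clusters: 9.0 had 290.1 CPM over 81 cells, and 2.2 had 183 CPM over 1093 cells. Both held Ly6c2, Ccr2, Vcan and Plac8, markers of monocytes, and 2.2 also held Arg1, Spp1 and Vegfa. In 2.2, Nrg1 was 143, 158 and 102 CPM in treated mice, against 258 and 161 CPM in vehicle 2 and 3. The treated values there rest on 23, 37 and 41 cells, and the vehicle values on 277 and 698.

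Outside macrophages and monocytes, Nrg1 was highest in fibroblast sub-cluster 6.3 (Tagln, Acta2, Col1a1), at 276 CPM, with 276 of its 277 cells from vehicle 2. Conventional dendritic sub-cluster 19.2 had 227 CPM over 70 cells and all 4 mature dendritic markers (Ccr7, Fscn1, Ccl22 and Cacnb3). Ereg was highest in fibroblast sub-clusters 6.5 (H19, Igf2, Col1a1) at 176 CPM and 5.8 (Col3a1, Col1a2, Saa3) at 124 CPM. Of the 97 cells of 6.5, 94 came from vehicle 2, and of the 125 cells of 5.8, 110 came from vehicle 3. Each of these Ereg values thus rests almost wholly on 1 vehicle tumour.

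In the epithelium, Hbegf ranged from 23.2 to 852 CPM over 59 sub-clusters, with a median of 382 CPM and no sub-cluster at 0. Its highest sub-clusters were 10.2 (Ly6d, Dmbt1, Reg1), all from vehicle 2, and 27.1 (Ctla2a, Krt18, Krt8), at 807 CPM. Btc was highest in 10.6 (Agr2, Ly6d, Tff1, Gkn2) at 183 CPM and in 21.0 (Tff1, Tff2, Gkn1) at 169.9 CPM, both led by genes of gastric-type mucous cells and drawn mostly from vehicle 2. They also held 4 and 5 of the 5 markers of dividing cells. The next were not led by such gastric genes: 27.3 (Ctla2a, Krt18, Prkg2) at 148 CPM, with 134 of 137 cells from vehicle 3, and 24.2 (Tm4sf1, Apob, Mmp13) at 147 CPM, with all 278 cells from vehicle 2. Tgfa was highest in tumour sub-cluster 18.2 (Chgb, Gm26917, Onecut2) at 54.8 CPM, from only 13 UMIs in 135 cells. Of these UMIs, 10 came from the 74 cells of vehicle 2. The endothelial sub-cluster 23.2, with the lymphatic markers Prox1, Flt4, Mmrn1 and Reln, had 51.9 CPM of Tgfa from 46 UMIs in 52 cells, above the median of 10.8 CPM over 11 endothelial sub-clusters. It also held all 4 myofibroblastic markers searched (Acta2, Tagln, Postn and Thy1) at 50 CPM or more. For Egf and Epgn the highest sub-clusters rested on 9 UMIs (19.2, 27.6 CPM) and 4 UMIs (26.8, 4.80 CPM).

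**Figure D3:**
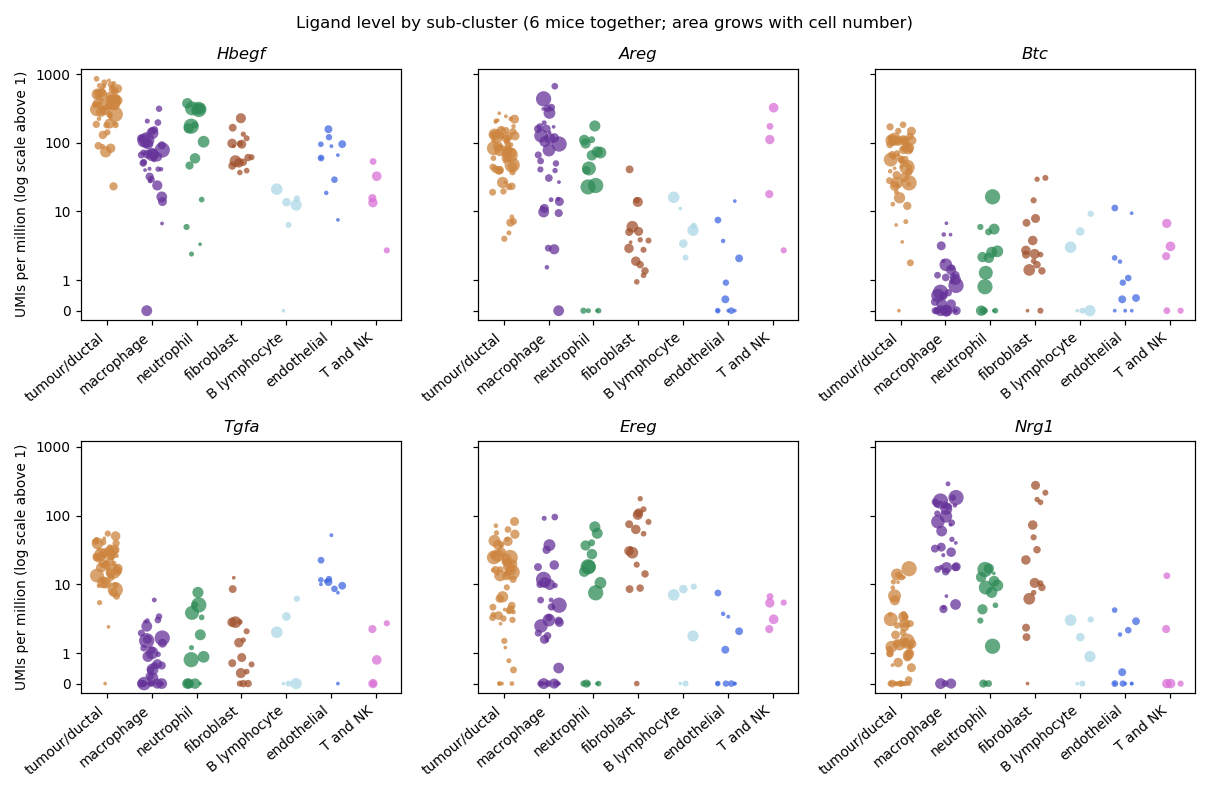
Level of Areg, Ereg, Hbegf, Tgfa, Btc and Nrg1 (CPM, log axis) in each named sub-cluster of at least 20 cells, 1 point per sub-cluster, grouped by cell class. Areg spans 2.71 to 323 CPM over 5 sub-clusters of T and NK lymphocytes, and Btc is high only within the epithelium.

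Treatment was tested per class on counts summed per mouse (edgeR quasi-likelihood test, Benjamini-Hochberg adjustment over all genes of the class at 0.05). Of 56 pairs of a ligand and a tested class, 22 passed the filter on low counts, and 0 of them passed the test. Fold changes were below 0, that is lower in treated mice, in 16 of the 22, and unadjusted p fell under 0.05 for 2, Btc in tumour cells and Ereg in fibroblasts. Unadjusted p was under 0.05 for 1844 of all 15583 genes in tumour cells and 2015 of 12502 in fibroblasts. Over all genes, edgeR called 0% in tumour cells, macrophages, neutrophils, fibroblasts and B lymphocytes, 1.03% in endothelial cells and 0.12% in T and NK lymphocytes. DESeq2 called 1 of the same 22 pairs, Ereg in fibroblasts, where it called 2.49% of all genes. Without vehicle 1, 0 of 26 pairs passed, 20 of them lay below 0 and 9 had an unadjusted p under 0.05. In that fit 2379 of all 16367 genes in tumour cells and 3007 of 13102 in fibroblasts met the same unadjusted cut. So did 1569 of 12148 genes in macrophages, 403 of 6465 in neutrophils and 148 of 3489 in B lymphocytes. The counts were 2649 of 10777 in endothelial cells and 324 of 5547 in T and NK lymphocytes. Without vehicle 3, 12 of 24 pairs lay below 0. In the fit without vehicle 1 edgeR called 0% of all genes in tumour cells and macrophages, 0.0309% in neutrophils, 0.0916% in fibroblasts, 0.43% in B lymphocytes, 6.89% in endothelial cells and 0.451% in T and NK lymphocytes. Without the filter on low counts, Ereg in endothelial cells passed, where edgeR called 3.99% of all genes. It was at 0 in all 3 treated mice and in vehicle 1, with 11 UMIs in vehicle 2 and 4 in vehicle 3, in a class where the tumour marker sum was also lower in each treated mouse. The unfiltered shares were 0% in tumour cells and fibroblasts, 0.241% in macrophages, 0.0397% in neutrophils, 0.24% in B lymphocytes and 0.424% in T and NK lymphocytes. With the filter, DESeq2 called 2.85% of genes in tumour cells, 2.12% in macrophages, 0.026% in neutrophils, 0.141% in B lymphocytes, 2.02% in endothelial cells and 0.14% in T and NK lymphocytes.

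Ereg in fibroblasts averaged 18.3 ± 5.77 CPM (treated) and 66.3 ± 46.5 CPM (vehicle). Its log2 fold change, treated over vehicle, was -2.02 (SE 0.61), with an adjusted p of 0.230 in edgeR and, at -2.0, of 0.0354 in DESeq2. Without vehicle 1 it was -2.44 (SE 0.27, edgeR adjusted p = 0.0568). All 3 treated mice then lay below both vehicle mice, but the share of all genes that separate so was not counted. The call on Ereg in fibroblasts therefore depends on the tool.

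Btc in tumour cells averaged 37.9 ± 2.03 CPM (treated) and 85.0 ± 43.0 CPM (vehicle). Its log2 fold change was -1.52 (SE 0.46), with an adjusted p of 0.404 in edgeR and 0.0904 in DESeq2. Without vehicle 1 it was -1.91 (SE 0.20, edgeR adjusted p = 0.295). In that fit the 3 treated mice, at 36.6 to 40.2 CPM, lay below vehicle 2 and 3, at 120.4 and 97.3 CPM. How many of all genes separate so was not counted, and edgeR called 0% of all genes in tumour cells. Over all kept cells Btc had a log2 fold change of -1.57 (SE 0.52, edgeR adjusted p = 0.412), the member with the lowest p there. All 8 members had values below 0 over all kept cells, where 0 were called by edgeR or DESeq2. Of all genes there, edgeR called 0% and DESeq2 2.56%. Unadjusted p in edgeR was under 0.05 for 1 member and for 1890 of all 17494 genes. Values of Areg, Egf, Epgn and Nrg1 over all kept cells changed sign when 1 mouse was left out. Sums over all cells move with the makeup of each suspension as well as with the level per cell.

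Areg had values of opposite sign in macrophages and tumour cells, and neither passed the test. Its log2 fold change was 1.12 (SE 1.06, edgeR adjusted p = 0.771) in macrophages and -0.80 (SE 0.63, edgeR adjusted p = 0.625) in tumour cells. In T and NK lymphocytes it was -0.28 (SE 0.47) and in neutrophils -1.31 (SE 1.01), with adjusted p of 1.00 and 0.817 in edgeR. The spread between mice was larger than the difference between groups in macrophages, which averaged 211 ± 87.9 CPM (treated) and 104 ± 129 CPM (vehicle). In macrophages it was 0.58 (SE 0.74) without vehicle 1 and 2.83 without vehicle 3 (edgeR adjusted p = 0.355). Without vehicle 1 it was, in tumour cells -1.27 (SE 0.30, edgeR adjusted p = 0.295).

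Nrg1 had log2 fold changes of -0.21 (SE 0.78) in macrophages, -1.63 (SE 1.07) in fibroblasts, 0.43 (SE 0.65) in neutrophils and 1.04 (SE 0.81) in tumour cells, with edgeR adjusted p of 0.963, 0.475, 0.903 and 0.616. The level of Nrg1 in tumour cells was one that free RNA can also give. In fibroblasts the value turned to 1.17 without vehicle 2, the mouse whose fibroblasts held 135 CPM. Macrophages of treated mice averaged 67.3 ± 13 CPM and those of vehicle mice 83.7 ± 68.2 CPM. Without vehicle 1 the value in macrophages was -0.72 (SE 0.22, edgeR adjusted p = 0.235).

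Hbegf passed the test in 0 of the 5 classes where it was tested. Its log2 fold changes ran from -0.59 (SE 0.80) in neutrophils to 0.16 (SE 0.56) in macrophages, with edgeR adjusted p of 0.710 or more. Tumour cells gave -0.35 (SE 0.37), on edgeR's trimmed-mean scale, where the mean CPM of the groups nearly coincided. Tgfa gave -0.50 (SE 0.57) in tumour cells and 0.09 (SE 0.41) in endothelial cells, with adjusted p of 0.731 and 0.938. Ereg gave -0.66 (SE 0.86) in tumour cells and 0.14 (SE 0.54) in macrophages. In tumour cells Egf gave -0.18 (SE 0.87) and Epgn -0.60 (SE 0.79), both from levels under 1 CPM, and without vehicle 1 these values turned to 1.23 and 0.04. The median over the members tested was -0.55 in tumour cells, against -0.06 over all 15583 genes, and -1.15 in fibroblasts, against 0.00 over all 12502 genes, over 8 and 4 members. It was 0.15 over 4 members in macrophages, -0.59 over 3 in neutrophils and -0.05 over 2 in endothelial cells.

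**Figure D4:**
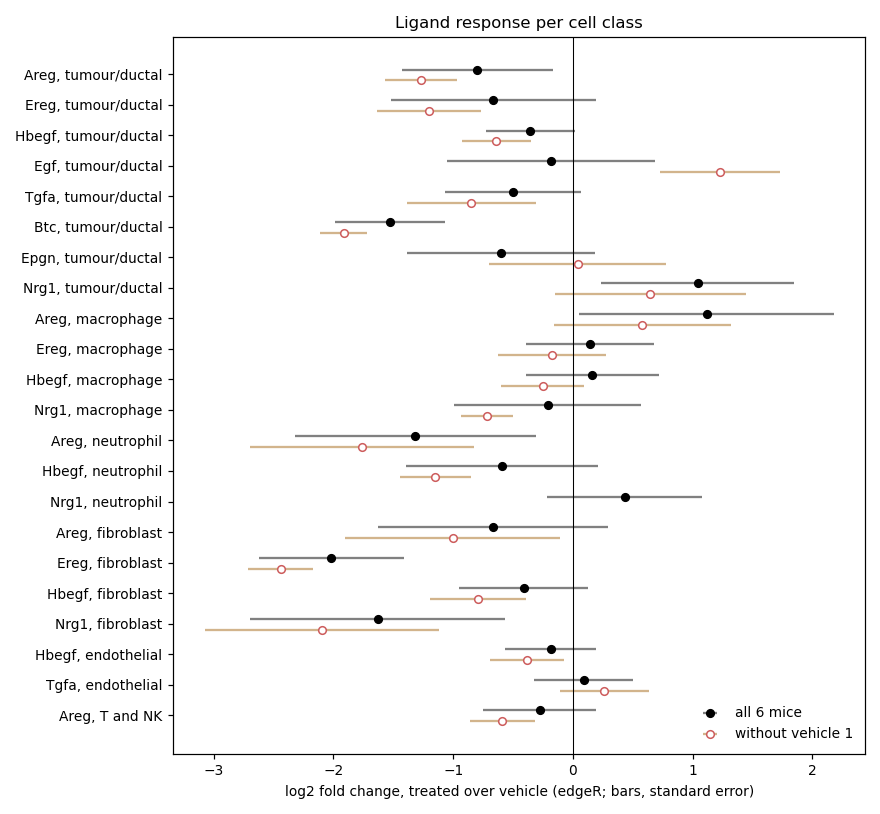
Log2 fold change, treated over vehicle (points, with SE as bars), of each ligand in each class where it passed the filter, from the edgeR fits with all 6 mice (filled) and without vehicle 1 (open, not tested for Nrg1 in neutrophils). Ereg in fibroblasts and Btc in tumour cells lie farthest below 0 for their error, at -2.02 and -1.52 with all mice.

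Whether a ligand responded differently in tumour cells and in another class was tested in joint fits of both classes with a term for mouse. Of 39 such differences, 0 passed the edgeR test, and 7 had an unadjusted p under 0.05. How many of all genes met that unadjusted cut was not counted, so the 7 are not a result about the ligands. The share of all genes called was 0% for macrophages, neutrophils, fibroblasts and endothelial cells, 0.12% for B lymphocytes and 0.173% for T and NK lymphocytes. For Areg the response in macrophages exceeded that in tumour cells by 2.65 (SE 0.70) on the log2 scale (edgeR quasi-likelihood adjusted p = 0.298). It was 2.15 (SE 0.62) without vehicle 1, and between 2.15 and 3.55 when any 1 mouse was left out, with adjusted p from 0.167 to 0.827. For Tgfa the response in fibroblasts exceeded that in tumour cells by 1.29 (SE 0.50, edgeR adjusted p = 0.620). The other differences under 0.05 concerned Ereg, Tgfa and Nrg1 in lymphocytes or endothelial cells, where all 3 treated mice had 0 UMIs, and no size is given.

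The share of cells with at least 1 UMI of a ligand was compared at 1 depth, after thinning each cell to 2000 UMIs. Of 22 pairs, 0 passed the exact permutation test over mice, whose smallest p is 0.1 with 3 mice a group. Hbegf was found in 41.2% ± 3.27 of treated tumour cells and 42.3% ± 9.94 of vehicle tumour cells, against 0.676% ± 1.17 of B lymphocytes in treated and 1.08% ± 1.88 in vehicle mice. Without thinning the shares in tumour cells were 77% in treated and 71.3% in vehicle mice. Btc was found in 6.81% ± 0.62 of treated tumour cells and 15.1% ± 6.22 of vehicle tumour cells (exact permutation p = 0.1, adjusted p = 0.733), and without thinning in 40.5% and 50.7%. Ereg was found in 2.23% ± 1.07 of fibroblasts in treated mice and 10.2% ± 5.67 in vehicle mice (exact permutation p = 0.1, adjusted p = 0.733), and without thinning in 13.7% and 25.8%. In B lymphocytes the thinned share was 0% in treated mice for both genes and 0.542% ± 0.939 in vehicle mice for both. Median depth before thinning was 19165 to 34430.5 UMIs in treated and 11009 to 23852 in vehicle tumour cells, 11966 to 23147.5 in treated and 6359 to 13530 in vehicle fibroblasts, and 3254 to 3412 in treated and 1235 to 1954 in vehicle B lymphocytes. Thinning left out 9.35% of treated and 16.8% of vehicle tumour cells, 10.3% of treated and 11.7% of vehicle fibroblasts, and 55.0% of treated and 90.5% of vehicle neutrophils.

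The 4 receptors of the family were set beside their ligands. Egfr was highest in fibroblasts, at 79.1 ± 9.58 CPM (treated) and 66.7 ± 20.2 CPM (vehicle), and reached 16.1 ± 3.96 CPM in tumour cells of treated mice and 20.7 ± 11.9 CPM in those of vehicle mice. Erbb3, a receptor of Nrg1, was highest in tumour cells, at 20.9, 7.66 and 104.2 CPM in treated mice, against 14.4, 42.4 and 36.1 CPM in vehicle mice. Treated 3 stood apart from the other 5 mice for Erbb3, and it also had the highest Erbb2, 44.7 CPM, in tumour cells. Erbb2 averaged 24.2 ± 17.8 CPM in tumour cells of treated mice and 22.2 ± 5.63 CPM in those of vehicle mice, and about 10.3 CPM in fibroblasts of treated mice and 10.7 CPM in those of vehicle mice. Erbb4 averaged 0.372 CPM in tumour cells of treated mice and 0.112 CPM in those of vehicle mice and was at 0 in fibroblasts, macrophages, endothelial cells and both lymphocyte classes of all mice. Macrophages and neutrophils averaged at most 3.35 CPM of any of the 4 receptors. The edgeR test was passed by 0 of the 4 in any class.

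**Figure D5:**
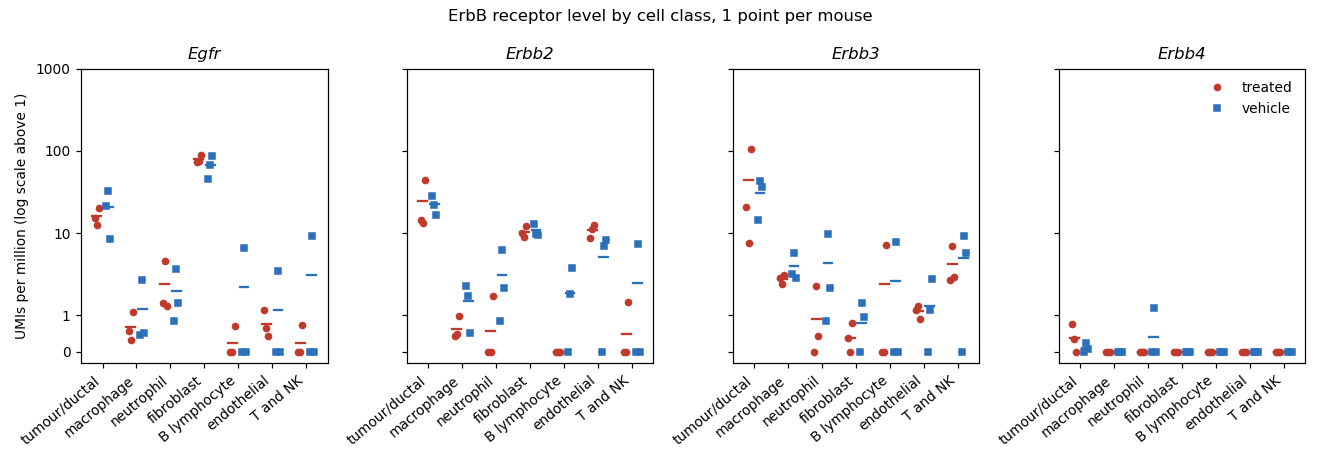
Level of the 4 ErbB receptors (CPM, log axis) in each of the 7 tested cell classes, 1 point per mouse, with treated mice left of vehicle mice and bars at group means. Egfr is highest in fibroblasts and Erbb3 in tumour and ductal epithelial cells.

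The pathway around the ligands was followed through 32 genes in 6 lists: the family members Nrg2, Nrg3 and Nrg4, the 4 receptors, 9 sheddases and iRhom partners, 9 adaptors and ubiquitin ligases, 5 receptor inhibitors and 2 trafficking genes. No list gene passed the edgeR test in either direction in any class, out of 31 tested in tumour cells, 22 in macrophages, 16 in neutrophils, 27 in fibroblasts, 2 in B lymphocytes, 23 in endothelial cells and 11 in T and NK lymphocytes. Unadjusted p fell under 0.05 for 2, 2, 0, 3, 0, 2 and 1 of them, in the same order. Among all genes tested that held for 1844 of 15583, 1182 of 11625, 416 of 7699, 2015 of 12502, 53 of 2126, 2059 of 10167 and 198 of 5011. DESeq2 called 1 of them in tumour cells, 0 in the other 6 classes and 1 over all kept cells, both named after their values were seen. Lrig1, which restrains ErbB receptors, was called in tumour cells, at 24.6, 26.4 and 27.9 CPM in treated mice, against 8.10, 11.8 and 5.76 CPM in vehicle mice. The groups did not overlap, but the share of all genes without overlap was not counted, so this is not a result about Lrig1. In this class DESeq2 called 2.85% and edgeR 0% of all genes. The log2 fold change of Lrig1 was 1.31 (SE 0.28, edgeR adjusted p = 0.404) and, in DESeq2, 1.33 (adjusted p = 0.00569). Rhbdf1, the iRhom1 partner of the sheddase ADAM17, was called over all kept cells at -0.75 (DESeq2 adjusted p = 0.0289, edgeR adjusted p = 0.395), where cell makeup also enters. The median log2 fold change of the 9 sheddases and partners, which release the ligands, was -0.44 in tumour cells and -0.20 in fibroblasts. The 2 trafficking genes had a median of -2.33 in tumour cells. Of these, Nkd2 had 0.464, 0.589 and 0.420 CPM in treated mice, against 0.787, 1.03 and 11.2 CPM in vehicle mice, so that vehicle 3 alone stood apart. That of the 5 receptor inhibitors was 0.20 in tumour cells and 0.07 in fibroblasts. Medians over all genes in these classes are given above.

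Genes whose level followed each ligand most closely over the 11 classes with at least 20 cells in at least 2 mice were ranked by Pearson's r of log2(mean CPM + 1), among 12309 genes. Values over classes share libraries and depth and are descriptions. For Areg the nearest were Rbpj (0.89), Plagl2 (0.87) and Zbtb7b (0.87), and for Ereg Inhba (0.95), Gm12840 (0.91) and Slc35b2 (0.91). Those nearest Hbegf were Eif4ebp1 (0.94), Stk16 (0.93) and Rnf24 (0.93), and those nearest Btc 9130008F23Rik (0.96), Faim2 (0.96) and Krt8 (0.96), the keratin of simple epithelia. Nearest Tgfa were Itga3 (0.97), Fbp2 (0.96) and Palmd (0.95), and nearest Nrg1 Scamp2 (0.91), Polr2l (0.90) and Naaa (0.90). Egf was nearest Siglech (0.94), Zkscan5 (0.91) and Sept3 (0.90), and Epgn, which stayed under 1 CPM, Ero1l (0.95), Smim4 (0.91) and Bnip3 (0.89). Among the members themselves, r was highest between Ereg and Epgn (0.69) and between Tgfa and Btc (0.62), and lowest between Egf and Epgn (-0.39). Ereg and Epgn are also neighbours on chromosome 5. For the other pairs of these neighbours, r was 0.41 for Areg and Epgn and 0.40 for Areg and Ereg. It was 0.26 for Ereg and Btc, 0.24 for Areg and Btc and 0.06 for Btc and Epgn.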

How the data were processed

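Single-cell libraries of 6 tumours, 1 per mouse, were taken from the deposited matrices of raw UMI counts, which the authors made with Cell Ranger 5.0.1 on mouse build mm10, per the submitters' processing notes. Which annotation release they used is not stated in these sources. Nothing beyond the treatment groups links mice of the same number, and the 3 mice of a group are its replicates.

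Barcodes with at least 500 UMIs, 250 genes and at most 20% mitochondrial UMIs were kept. Doublets were removed at an expected 0.8% per 1000 barcodes (2910 barcodes), since the scores' own threshold called too few. Cells were clustered with scanpy 1.11.5 (2000 variable genes without the 8 ligands, 30 components, 15 neighbours, Leiden resolution 1) into 29 clusters and 196 sub-clusters. A sub-cluster was named where at least 3 markers reached 50 CPM and 4 times the 25th percentile of other clusters. A sub-cluster that met this for no cell type took the name of its whole cluster, if that was named. A review by hand of leading genes followed. Naming rules were set after the clusters were seen, and differences from the study may come from rebuilt names. The ligands and gene lists were chosen with earlier results of these data known. Levels, shares and sub-cluster values are given for the ligands in full, and other genes were named by list or by the 3 highest correlations.

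Counts were summed per mouse and class, in classes with at least 20 cells in every mouse. They were tested with edgeR 4.0.16 (quasi-likelihood test, TMM, filterByExpr, robust) over all genes with Benjamini-Hochberg adjustment at 0.05, and with DESeq2 1.42.0 as alternative, in R 4.3.3. The code was tested on simulated counts. Other alternatives were no filter on low counts, leaving out each mouse, the replicate block, treated 1 and 2 summed, doublets kept, at most 10% mitochondrial UMIs, and cells thinned to 2000 or 1000 UMIs. Library totals are in the report, and limits from a count of 0 use 3 UMIs. An allele of the model and the results on 1 T cell sub-cluster are not reported here. Promoters are from RefSeq tables of GRCm38.p6, which matched 5 of the 8 ligands.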

Additional observations from a re-analysis of the deposited data

How the results depend on the processing

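In no setting did more than 1 ligand in a class pass the test. The count of ligands called was 1 in fibroblasts with DESeq2 (Ereg, against 0 in edgeR) and 1 in endothelial cells without the filter on low counts (Ereg, edgeR adjusted p = 0.0131, with all 3 treated mice and vehicle 1 at 0, so that no size is given, where edgeR called 3.99% of all genes). Of the recomputed log2 fold changes, 348 kept their direction and their side of the threshold, 1 newly passed and 30 changed sign, each from a value that passed no test, and the cause was not tested. When each mouse was left out in turn, values that changed sign ran from -0.59 to 0.20 for Areg in T and NK lymphocytes, -2.48 to 0.54 for Areg in neutrophils, -0.32 to 0.77 for Ereg in macrophages, -0.79 to 0.45 for Hbegf in fibroblasts, -0.41 to 0.40 for Hbegf in endothelial cells, -0.25 to 0.86 for Hbegf in macrophages, -0.30 to 0.35 for Tgfa in endothelial cells, -0.72 to 0.31 for Nrg1 in macrophages, -1.28 to 0.40 for Areg in fibroblasts, -0.63 to 1.23 for Egf and -1.21 to 0.040 for Epgn in tumour cells, and -2.13 to 1.17 for Nrg1 in fibroblasts. Over all kept cells they ran from -0.72 to 0.34 for Areg, -0.67 to 0.50 for Egf, -0.97 to 0.27 for Epgn and -0.79 to 0.29 for Nrg1. Among values that kept their sign, Hbegf ran from -1.15 to -0.0062 in neutrophils and -0.64 to -0.032 in tumour cells, lowest without vehicle 1 and highest without vehicle 3. Tgfa in tumour cells ran from -1.14 (without treated 3) to -0.047 (without vehicle 3), Ereg there from -1.20 (without vehicle 1) to -0.17 (without vehicle 2), and Nrg1 there from 0.65 (without vehicle 1) to 2.03 (without vehicle 3). Thinning to 2000 UMIs gave 0.41 for Areg in T and NK lymphocytes and -0.24 for Ereg in macrophages. With treated 1 and 2 summed, Tgfa in endothelial cells was -0.018 and Epgn over all cells 0.23, and DESeq2 gave -0.0023 for Tgfa in endothelial cells. The replicate block gave 0 calls in each class, with 0.29 for Nrg1 in macrophages, 0.40 for Egf in tumour cells and 0.10 for Areg and 0.28 for Nrg1 over all cells. Same-numbered mice did not deviate together in tumour cells (r = -0.037, -0.112 and -0.040), and in neutrophils (r = 0.084, 0.235 and 0.124) each mouse correlated best with its own number. With 3 mice a group and vehicle 1 apart, with 2142 kept cells, differences smaller than the spread between vehicle mice could not be resolved. Ligands under 5 CPM rest on few UMIs.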

Other observations

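Some of the cells that stayed unnamed held ligands at levels as high as those of the named classes, over few cells. Sub-cluster 26.6 (Tm4sf1, Mt2, Ankrd1), 63 cells all from vehicle 1, had 270 CPM of Hbegf, with a UMI in 85.7% of cells. Sub-cluster 19.4.0 (Cd74, H2-Ab1, Ccl17), 49 cells led by genes of antigen presentation, had 199 CPM of Areg from 71 UMIs and 101 CPM of Nrg1 from 36 UMIs. Sub-cluster 5.7.3 (Dcn, Slpi, C3), with 30 of its 31 cells from treated 3, had 187 CPM of Hbegf, and 5.7.0 (Dcn, C3, Igfbp5), also 31 cells, had 137 CPM. Sub-cluster 9.3.0 (S100a8, Chil3, Ly6c2), 20 cells, had 118 CPM of Nrg1 from 29 UMIs.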
